A study of Mus musculus with 24 samples.

Results

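To see which transcripts lay on each side of the CD45 gate, the RNA of sorted hematopoietic and non-hematopoietic cells of the HOIL1-deficient ileum was compared. The members are the 6 CD45 positive and the 6 CD45 negative libraries whose genotype label carries Hoil1-/-, 12 of the 24 libraries of the series. Each fraction held 3 libraries of Hoil1-/-Il4raflox/flox mice (f/f below) and 3 of Hoil1-/-Il4raflox/flox+Vil1cre mice (ΔIEC below), and no library carried a treatment. The mice were C57BL/6 by the labels (C57BL/6 J in the study's methods) and 9 to 9.9 weeks old, and both sexes were used. All 12 libraries share the Hoil1-/- allele, Rbck1 tm1Kiwa, which leaves an N-terminal piece of HOIL1 at a low level and is thus not a full loss, and all 12 carry the loxP-flanked Il4ra. In ΔIEC mice the Vil1-cre transgene removes Il4ra from intestinal epithelial cells (IECs) and from no other cell by design. Ileum without Peyer's patches was separated into an epithelial and a lamina propria preparation, a portion of the epithelial cells was added back to the lamina propria cells, and live CD45+ and CD45- singlets were sorted. The balance between cell types therefore follows the preparation as well as the tissue. The study describes its samples as taken from individual mice, but each library number occurs once, so the labels pair no CD45+ with a CD45- library of the same mouse.

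CD45, encoded by Ptprc, is a receptor tyrosine phosphatase on nearly all nucleated hematopoietic cells that removes the inhibitory phosphate from Src-family kinases and so sets the threshold of antigen receptor signalling. Epithelial cells, endothelium, fibroblasts, smooth muscle and enteric glia lack it. In the small intestine the CD45+ compartment is rich in IgA plasma cells, intraepithelial lymphocytes, macrophages and innate lymphoid cells, and these cells exchange cytokines and chemokines with the epithelium and stroma beside them. HOIL1 is, with HOIP (Rnf31) and SHARPIN (Sharpin), a subunit of LUBAC, the complex that makes linear ubiquitin chains in TNF and Toll-like receptor signalling.

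The counts on genes ranged from 6028275 to 30131213 per CD45- library and from 14938629 to 52267821 per CD45+ library. Values are CPM, counts scaled to a library of fixed size, after TMM scaling over the 12 libraries, and 3 counts, the limit set for a fraction without a count, were worth 0.0988 to 0.415 CPM in single CD45- libraries and 0.0581 to 0.188 CPM in single CD45+ libraries. Immunoglobulin genes took 12.4% to 44.0% of the counts of a CD45+ library and 0.0446% to 1.66% of a CD45- library, and mitochondrial genes took 3.11% to 8.96% and 6.87% to 17.4%. Limits and counting intervals cover counting error only. The authors left out CD45+ f/f replicate 13, CD45- f/f replicate 23 and CD45+ ΔIEC replicate 24 as outliers of a principal component analysis. They are kept here unless a result is said to rest on 9 libraries, and the values of 3 libraries are always given in the order 1, 2 and 23 (CD45- f/f), 3, 4 and 5 (CD45- ΔIEC), 13, 14 and 15 (CD45+ f/f) and 16, 17 and 24 (CD45+ ΔIEC). The targeted gene, Rbck1 (ENSMUSG00000027466.15, chr2:152316334-152332653, minus strand, GRCm38), was low in both fractions, at 0 to 7.28 CPM (median 3.64) in CD45- and 5.36 to 16 CPM (median 7.38) in CD45+ libraries, whereas the 12 Hoil1+/+ libraries, scaled together with these, held 73.3 to 110.1 CPM in CD45- and 90.5 to 158 CPM in CD45+. Its difference between the fractions of Hoil1-/- mice did not pass the test, with a log2 fold change of 1.07 (SE 0.82, adjusted p = 0.35).

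The markers of the gate followed the labels in all 12 libraries. Ptprc (ENSMUSG00000026395.16, chr1:138062861-138175708, minus strand) was at 10.5, 16.2 and 3.81 CPM in CD45- f/f and 1.89, 0.408 and 0.415 CPM in CD45- ΔIEC libraries. In the CD45+ libraries it was at 469.8, 640.4 and 609 CPM in f/f and 567, 581 and 252 CPM in ΔIEC mice. The fractions did not overlap, CD45+ ΔIEC replicate 24 was the lowest of its fraction, and the log2 fold change, always CD45+ over CD45- here, was 7.33 (SE 0.84, adjusted p = 8.3e-05) by the quasi-likelihood test of edgeR, which here and below held Il4ra genotype as a covariate and was adjusted over all genes by Benjamini-Hochberg. Epcam (ENSMUSG00000045394.8, chr17:87635979-87651129, plus strand), an adhesion molecule of the epithelium, was at 1304, 1180.1 and 460.4 CPM in CD45- f/f and 347, 163 and 566 CPM in CD45- ΔIEC libraries. CD45+ libraries held 69.3, 30.8 and 66.7 CPM in f/f and 23.3, 7.06 and 26.3 CPM in ΔIEC mice. Epcam was thus lower in every CD45+ library, with a log2 fold change of -4.19 (SE 0.47, adjusted p = 7.5e-05), but it was not absent from any of them. In bulk RNA of sorted cells, fewer cells of a type and less RNA per cell cannot be told apart, here or below.

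**Figure D1:**
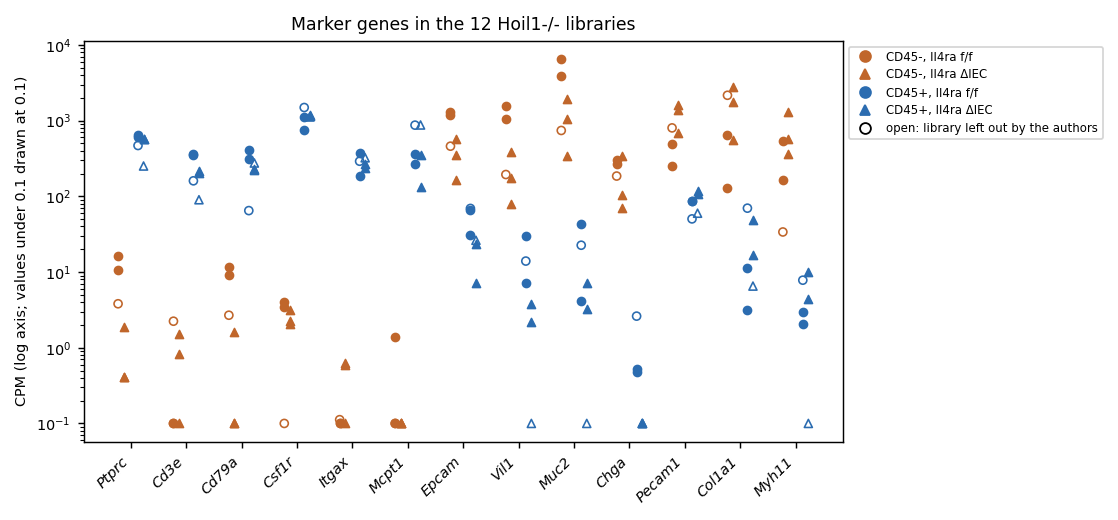
CPM (log axis) of 13 marker genes in each of the 12 Hoil1-/- libraries, CD45- in orange and CD45+ in blue, with circles for Il4ra f/f, triangles for ΔIEC and open symbols for the 3 libraries the authors left out. The 6 genes of hematopoietic cells on the left are higher in every CD45+ than in every CD45- library, and the 7 genes of epithelium, endothelium, fibroblasts and muscle on the right are lower in every CD45+ than in every CD45- library.

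Of 16197 genes tested, 2525 (15.6%) were higher and 3071 (19%) lower in CD45+ libraries at an adjusted p under 0.05, 5596 (34.5%) in all, and all 6 CD45+ libraries lay above all 6 CD45- libraries for 10.1% of genes tested and below them for 11%. Without the 3 libraries the authors left out, 2629 of 17001 genes (15.5%) were higher and 3070 (18.1%) lower, and 4774 of the 5596 genes called over 12 libraries passed in the same direction over 9, with none passing in the opposite direction. With total counts in place of TMM scaling the split was 1758 higher and 3791 lower, and the median log2 fold change of all genes moved from 0.02 to -0.33. Values below are relative to the TMM scale.

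The genes that separated the fractions most reliably, taken as the 10 protein-coding genes per direction with the smallest adjusted p among those with a log2 change of at least 2 and no overlap, are described first. Absence of overlap was required of these genes and small spread is favoured by the ranking, so neither is a separate result for them. Among those higher in CD45+ cells, Hcls1, a cortactin-like actin regulator of hematopoietic cells, was at 7.74, 17.9, 13, 25.2, 15.9 and 16.4 CPM in the CD45- and 436, 352, 399, 397, 397 and 381 CPM in the CD45+ libraries. Its levels in the CD45+ libraries lay within a narrow band in all 6, with a log2 fold change of 4.65 (SE 0.28, adjusted p = 3e-06). Arhgdib, a GDP-dissociation inhibitor of small GTPases in leukocytes, and Lcp1, the actin bundler L-plastin, differed by 4.9 ± 0.3 and 4.68 ± 0.32 (log2 ± SE), with CD45+ levels of 331 to 657 and 688 to 911 CPM. The lysophospholipid acyltransferase gene Lpcat2, the cytokine gene Il16 and the hyaluronan receptor gene Cd44 differed by 4.7 ± 0.29, 4.87 ± 0.32 and 3.21 ± 0.21. Cd44 was nevertheless measured at 25 to 43.7 CPM in the CD45- libraries. The GTPase-activating protein gene Arhgap9 had no count in any CD45- library and was at 95.5 to 129 CPM in CD45+ libraries, so that it was at least 4106-fold higher when the limit of 3 counts is spread over the summed depth of the 6 CD45- libraries (0.0279 CPM). Tagap, Lair1 and Cd8a had 1 to 3 counts in all CD45- libraries together, against CD45+ levels of 50.8 to 141, 109.5 to 332 and 51 to 234 CPM, and the ratio of their counts per depth was 5772 (1598 to 47669), 6330.4 (2166 to 30698) and 4843 (1657 to 23486), with the exact 95% counting interval in parentheses.

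Among the genes lower in CD45+ cells, the tetraspanin gene Tspan7 was at 82.4, 96.9, 102, 128, 152 and 132 CPM in the CD45- and 3.02, 3.22, 3.36, 2.35, 4.5 and 4.02 CPM in the CD45+ libraries, with a log2 fold change of -5.06 (SE 0.23, adjusted p = 9.3e-07). Every CD45- library was above 80 and every CD45+ library below 5 CPM. Ceacam1, an adhesion molecule of epithelium and activated endothelium, and Pcdh1, a protocadherin, differed by -4.55 ± 0.25 and -4.4 ± 0.26. Nbl1, an antagonist of BMP signalling, Cps1, the first enzyme of the urea cycle, and the tetraspanin gene Cd151 differed by -4.72 ± 0.29, -5.65 ± 0.35 and -3.52 ± 0.23. Slc12a2, the basolateral chloride cotransporter NKCC1, was at 93.5 to 273 CPM in CD45- and 8.17 to 20.9 CPM in CD45+ libraries. The other members were Lhfpl2 (-4.25 ± 0.27), the ascorbate-dependent reductase gene Cyb561 (-5.01 ± 0.33) and the growth hormone receptor gene Ghr, which had 1 count in the CD45+ libraries together against 13.7 to 23.8 CPM in the CD45- libraries.

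**Figure D2:**
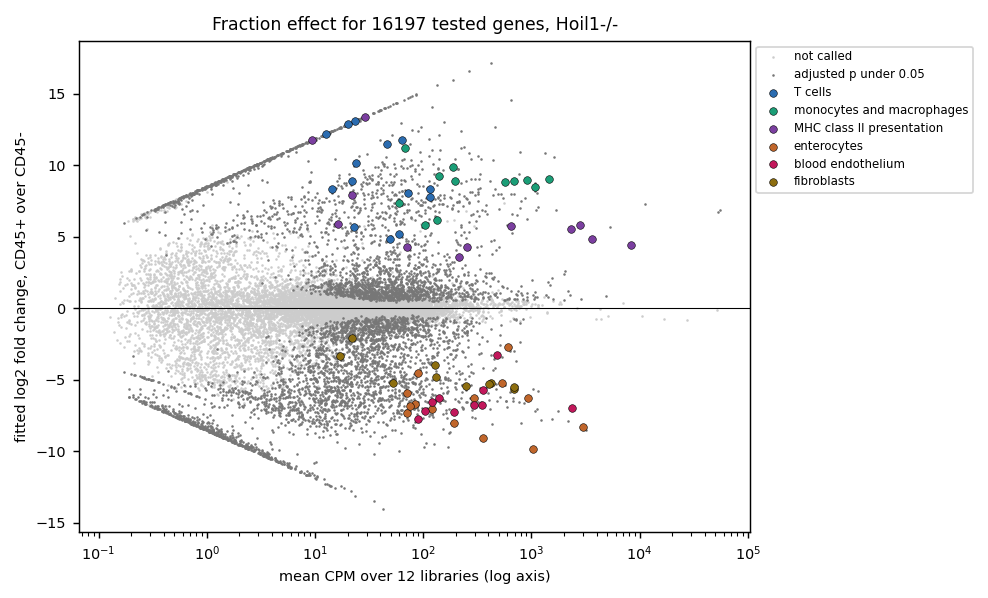
Fitted log2 fold change of CD45+ over CD45- libraries against the mean CPM over 12 libraries (log axis) for the 16197 tested genes, with genes past the threshold in dark grey and members of 6 gene lists in colour. T cell, macrophage and MHC class II genes lie above 0, enterocyte, blood endothelial and fibroblast genes below 0, and the straight edges at the top and bottom are genes without a count in 1 of the fractions, whose fitted value is no bound.

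Promoters are shown for 5 of the genes that define the sides of the gate. Genes of one side can share regulators that bind short motifs close to the start of transcription. For each gene the first promoter that held its named motif was printed, so the presence of the motif was fixed by this choice. The Ptprc window lies inside the gene span given above. PU.1 (Spi1) and other ETS factors are regulators of hematopoietic genes, and HNF4A and CDX2 of enterocyte genes. The sequences are the 250 bases before the start in RefSeq (GRCm38.p6), read 5′ to 3′ along the gene, with the motif in capitals, GAGGAAGT for PU.1 in Tagap, CAGGAAGT for ETS factors in Ptprc (found on the opposite strand) and Hcls1, GCAATAAAA for CDX2 in Sis and CAAAGTCCA for HNF4A in Alpi.
Tagap, chr17:7925750-7925999, plus strand: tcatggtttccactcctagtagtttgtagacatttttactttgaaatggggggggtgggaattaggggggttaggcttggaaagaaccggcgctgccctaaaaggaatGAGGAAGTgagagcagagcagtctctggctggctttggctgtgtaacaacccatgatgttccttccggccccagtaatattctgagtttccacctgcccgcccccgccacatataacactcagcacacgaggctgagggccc
Ptprc, chr1:138175306-138175555, minus strand: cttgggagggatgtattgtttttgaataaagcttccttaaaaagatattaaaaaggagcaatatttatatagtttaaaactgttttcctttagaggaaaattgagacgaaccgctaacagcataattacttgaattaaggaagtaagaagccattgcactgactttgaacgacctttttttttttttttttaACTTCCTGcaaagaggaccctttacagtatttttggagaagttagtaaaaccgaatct
Hcls1, chr16:36934733-36934982, plus strand: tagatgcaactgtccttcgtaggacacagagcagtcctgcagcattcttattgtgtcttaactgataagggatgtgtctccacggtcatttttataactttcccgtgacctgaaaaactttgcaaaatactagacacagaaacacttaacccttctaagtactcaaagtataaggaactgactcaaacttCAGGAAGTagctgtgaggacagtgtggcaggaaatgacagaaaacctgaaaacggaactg
Sis, chr3:72967864-72968113, minus strand: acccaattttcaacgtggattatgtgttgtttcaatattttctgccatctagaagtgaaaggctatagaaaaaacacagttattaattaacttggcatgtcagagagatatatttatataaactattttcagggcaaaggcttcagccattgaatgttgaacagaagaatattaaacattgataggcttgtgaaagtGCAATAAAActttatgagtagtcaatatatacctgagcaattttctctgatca
Alpi, chr1:87101607-87101856, minus strand: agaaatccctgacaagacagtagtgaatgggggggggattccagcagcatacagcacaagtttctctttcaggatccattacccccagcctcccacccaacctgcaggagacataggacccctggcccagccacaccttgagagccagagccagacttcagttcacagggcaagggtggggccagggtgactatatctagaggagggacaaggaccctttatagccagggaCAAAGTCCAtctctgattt

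Of the 2525 genes higher and the 3071 lower in CD45+ cells, 1779 and 2257 had a promoter in the RefSeq table, with 2301 and 2953 promoters, and 32851 promoters of all genes gave the background. Of the background, 18022 promoters belonged to genes not tested here and 9575 to genes tested and not called. On either strand, GAGGAAGT was in 5.65% of the promoters of genes higher in CD45+ cells, 1.69% of those lower and 2.44% of all. CAGGAAGT, the related ETS motif, was in 4.43%, 2.71% and 2.69%, and the RUNX motif TGTGGTT in 5.08%, 3.25% and 4.40%. On the epithelial side, CAAAGTCCA was in 0.478%, 0.677% and 0.384%, the HNF1 motif in 0.130%, 0.542% and 0.371%, and GCAATAAAA in 0.391%, 0.373% and 0.292%. Among the other motifs, the letters AGATAAG of GATA factors were in 2.17%, 2.54% and 2.74%, those of HNF4, GNNCAAAG, in 14.1%, 16.4% and 15.1% and those of CDX factors, TTTATG, in 7.52%, 7.62% and 10.8%. In promoters of genes tested and not called, AGATAAG was in 1.71%, TTTATG in 5.79% and TGTGGTT in 3.08%, below both called classes. CAGGAAGT was there in 2.57%, CAAAGTCCA in 0.272%, GCAATAAAA in 0.167% and GNNCAAAG in 13.96%, also below both. GAGGAAGT (2.23%) and the HNF1 motif (0.157%) lay between the called classes. Genes not tested held AGATAAG in 3.38%, TTTATG in 14.3% and TGTGGTT in 5.19% of promoters, which raised the share of all. These matches describe letters in a window and were not tested. The motifs GAGGAAGT and CAGGAAGT share their last 7 letters and cannot match at the same place, whereas CAAAGTCCA and GNNCAAAG can overlap.

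Transcription factor genes, among them factors that bind such motifs, were then counted. A link between their levels and the motif shares was not tested. Of 16 hematopoietic transcription factor genes, 13 were higher, 1 lower and 2 not called in CD45+ cells. Among all genes tested, 15.6% were higher and 19% lower. Spi1 was at 0.815, 0, 6.95, 0.831, 1.89 and 1.38 CPM in CD45- and 465, 174, 176, 301, 301 and 359.6 CPM in CD45+ libraries, a log2 difference of 7.31 ± 1.04. Runx1, needed for the emergence of blood stem cells, and Irf8, which directs dendritic cell and monocyte fate, differed by 5.25 ± 0.38 and 2.42 ± 0.28, and Irf8 was still at 33.5 to 79.7 CPM in CD45- libraries. Ikzf1 and Runx3 differed by 9.73 ± 1.01 and 10.02 ± 0.95. Ets1, which endothelium also uses, was at 61.9 to 322 CPM (median 201) in CD45- and 122 to 696 CPM (median 416) in CD45+ libraries and did not pass (log2 fold change 0.99, SE 0.52, adjusted p = 0.17), although it did over 9 libraries (1.71, adjusted p = 0.014). Myb went the other way. This factor of immature blood and crypt cells was at 25.5, 33.1, 38.9, 33, 23.5 and 25 CPM in CD45- and 9.1, 5.45, 5.74, 6.86, 10.7 and 3.59 CPM in CD45+ libraries, without overlap and with a log2 fold change of -2.11 (SE 0.32, adjusted p = 0.00047).

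Of 16 epithelial transcription factor genes, 15 were lower in CD45+ cells and none higher, beside 19% of all genes lower and 15.6% higher. Hnf4a, a nuclear receptor of enterocytes, was at 595, 391, 259.6, 183, 149 and 299 CPM in CD45- and 13, 7.52, 14.4, 9.97, 2.31 and 11.5 CPM in CD45+ libraries, with a log2 difference of -4.94 ± 0.45. Klf4, Elf3 and Klf5, zinc finger and ETS factors of villus and crypt epithelium, differed by -3.03 ± 0.51, -5.98 ± 0.85 and -4.09 ± 0.47, and Cdx1 and Cdx2, the homeobox factors of intestinal identity, by -4.81 ± 0.62 and -5.22 ± 0.71. Gata4 did not pass over 12 libraries (log2 fold change -4.26, SE 1.55, adjusted p = 0.051) and passed over 9 (-6.4, adjusted p = 0.018). Over 9 libraries Pou2f3 and Grhl2 no longer passed, at -4.06 (adjusted p = 0.078) and -5.11 (adjusted p = 0.079).

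T cells lay on the CD45+ side with no exception among the genes listed. Of 14 T cell markers tested, 14 were higher in CD45+ libraries, with a median fitted log2 fold change of 8.64 beside 0.02 over all genes, and the same 14 passed over 9 libraries. A gene can enter the test through the fraction where it is high alone. This count, the factor counts above and the following list counts are therefore descriptions. Each stands beside the 34.5% of all genes called in either direction. Cd3e, a chain of the T cell receptor complex, was at 0, 0, 2.24, 0.831, 0 and 1.52 CPM in CD45- and 161, 363, 353, 214, 206 and 90.2 CPM in CD45+ libraries (8.34 ± 1.27). Cd4 and Cd3g differed by 7.8 ± 0.85 and 8.02 ± 0.94. Cd3d, Cd2 and Cd5 had no count in any CD45- library and were at least 1677-fold, at least 1453-fold and at least 907-fold higher. Of 12 genes of intraepithelial and cytotoxic lymphocytes, 12 were higher, with granzyme A (Gzma) at 0 to 14.9 CPM (median 0.769) in CD45- and 477 to 1726 CPM (median 860.0) in CD45+ libraries and log2 differences of 8.33 ± 1.44 for Gzma, 8.97 ± 1.15 for Gzmb, 8.11 ± 1.34 for the chemokine Ccl5 and 7.17 ± 0.84 for Cd7. The summed CPM of the list was 1.66 to 23.5 in CD45- and 1453 to 4614 in CD45+ libraries.

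B lineage genes were divided between B cells, low in some CD45+ libraries, and plasma cells, high in all. Of 11 B cell markers, 11 were higher in CD45+ cells, 6 of them without a count in any CD45- library, and the median log2 fold change was 11.78 as fitted and 9.72 with those genes at their bound. All CD45+ lay above all CD45- libraries for 7 of the 11, beside 10.1% of all genes tested. Cd79a and Cd79b, the signalling chains of the B cell receptor, differed by 6.77 ± 1.19 and 7.3 ± 0.87. Pax5, the factor that holds B cell identity, was at 1.17, 95 and 54.8 CPM in CD45+ f/f and 74.2, 121 and 4.67 CPM in CD45+ ΔIEC libraries, so that replicates 13 and 24 were low among the CD45+ libraries. Cd22, a lectin that dampens the receptor, differed by 8.8 ± 1.23. Of 10 plasma cell genes, 9 were higher. Igha, the constant region of IgA, was at 2271, 5991 and 604 CPM in CD45- f/f, 562, 167 and 219 CPM in CD45- ΔIEC, 44127, 69251 and 251765 CPM in CD45+ f/f and 79483, 46494 and 135209 CPM in CD45+ ΔIEC libraries, a log2 difference of 6.73 ± 0.94. The CD45- libraries were far below the CD45+ libraries but all held Igha, with f/f replicate 2 the highest. Igkc, Jchain, which links IgA dimers, and Xbp1, a factor of the secretory pathway that goblet and Paneth cells also use, differed by 6.86 ± 0.98, 7.27 ± 0.94 and 2.06 ± 0.34. Prdm1, which drives plasma cell differentiation and is also made by enterocytes, was the 1 member not called (log2 fold change 1.24, SE 0.54, adjusted p = 0.098), and it passed over 9 libraries (2.01, adjusted p = 0.025).

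Macrophage genes lay wholly on the CD45+ side. Of 12 monocyte and macrophage markers, 12 were higher in CD45+ cells without any overlap, with a summed CPM of 7422 to 20783 in CD45+ and 11.5 to 87.0 in CD45- libraries. Lyz2, macrophage lysozyme, was at 4.64, 8.2, 19.8, 4.43, 1.97 and 1.38 CPM in CD45- and 5723, 2526, 1809, 1717, 1884 and 3649.8 CPM in CD45+ libraries (9.05 ± 0.7). CD45+ f/f replicate 13 held the most Lyz2 and CD45+ ΔIEC replicate 24 the next most. The complement genes C1qa, C1qb and C1qc, which resident macrophages make, differed by 8.49 ± 0.86, 8.99 ± 0.81 and 8.88 ± 1.33. Csf1r, the receptor that macrophages need to survive, was at 0 to 3.99 CPM in CD45- and 750.3 to 1493 CPM in CD45+ libraries. Per kilobase of exon, Csf1r was at 196 and 0.433 and Lyz2 at 2192 and 5.13 CPM in CD45+ and CD45- means.

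Of 10 dendritic cell markers, 9 were higher in CD45+ cells and 1 lower. Itgax, which encodes CD11c, differed by 10.42 ± 0.94, Ccr7, the receptor that guides dendritic cells to lymph, by 8.63 ± 1.35 and Batf3, a factor of cross-presenting cells, by 7.07 ± 1.05. Flt3, Clec9a, Cd209a and Siglech had no count in any CD45- library. Zbtb46 was lower in CD45+ cells, at 20.6, 15.5, 14.3, 34.9, 59.1 and 21.4 CPM in CD45- and 4.79, 5.15, 7.28, 9.25, 5.38 and 15.4 CPM in CD45+ libraries (log2 fold change -1.75, SE 0.35, adjusted p = 0.0026). Zbtb46 is used to mark classical dendritic cells, and it is also made by endothelium. The lowest CD45- library was below the highest CD45+ library, so the fractions overlapped.

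Of 12 granulocyte and mast cell genes, 10 were tested, 9 were higher in CD45+ cells and 1 was not called. Mcpt1 and Mcpt2, proteases of mucosal mast cells, were at 132 to 877 and 66.1 to 519 CPM in CD45+ and 0 to 1.38 and 0 to 0.323 CPM in CD45- libraries. Prg2, an eosinophil granule protein, differed by 6.76 ± 1.22. S100a9, of neutrophils, differed by 7.41 ± 1.44, and its partner S100a8 was at the edge of the threshold (log2 fold change 5.26, SE 1.91, adjusted p = 0.051) with CD45- f/f replicate 23 at 12.4 CPM and the other CD45- libraries at 0. Without a place in the test, the neutrophil gene Ly6g had counts only in CD45+ ΔIEC replicate 24, and the eosinophil peroxidase gene Epx had no count in any of the 12.

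All 12 genes of the MHC class II list were higher in CD45+ cells, and most were also clearly present in CD45- cells. Cd74, the invariant chain, was at 1247, 1239 and 427 CPM in CD45- f/f and 579, 286 and 732 CPM in CD45- ΔIEC libraries. CD45+ libraries held 24143, 10471 and 15343 CPM in f/f and 13777, 13436 and 17479 CPM in ΔIEC mice, a log2 difference of 4.45 ± 0.41. H2-Ab1, H2-Eb1 and H2-Aa, the chains of the class II molecules, differed by 4.87 ± 0.47, 5.83 ± 0.45 and 5.51 ± 0.48, smaller differences than the median of 8.64 for T cell and 8.89 for macrophage markers. Ciita, the class II transactivator, was at 12.2, 8.86, 9.42, 5.72, 3.71 and 3.87 CPM in CD45- and 124 to 147 CPM in CD45+ libraries (4.3 ± 0.3). The co-stimulatory genes Cd86 and Cd80 had no count in any CD45- library and were at least 2060.4-fold and at least 678-fold higher in CD45+ libraries. The CD45- libraries with the most enterocyte RNA, f/f replicates 1 and 2, also had the most class II RNA of that fraction (2063 and 2192 summed CPM against 473 to 1309 in the other CD45- libraries). They also held the most Ptprc, B cell RNA (10.3 and 11.8 against 1.80 to 4.20) and plasma cell RNA (4500 and 12995 against 575 to 1566). T cell and macrophage sums were instead highest in f/f replicate 23 (15.0 and 87.0 CPM), and the dendritic cell sum in ΔIEC replicate 4 (98.9 CPM). The part of epithelium or leukocytes in the class II RNA was not tested.

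The signalling genes around CD45 itself followed Ptprc. Of 15 genes of the list, 14 were higher in CD45+ cells. Csk, the kinase that sets the inhibitory phosphate CD45 removes, was at 81.8 to 128 CPM in CD45- and 292 to 372 CPM in CD45+ libraries (1.54 ± 0.17), one of the smallest differences of the list. Syk, a kinase of immune receptors, and Ptpn6, the phosphatase SHP-1, differed by 3.68 ± 0.38 and 3.41 ± 1.21. Ptpn6 was at 97.1, 105 and 0 CPM in CD45- f/f and 5.49, 0.965 and 26.1 CPM in CD45- ΔIEC libraries, so replicates 1 and 2 stood above the others, and its call was lost without any 1 of 9 libraries. Fyn, a Src-family kinase of many tissues, was not called (log2 fold change 0.67, SE 0.54, adjusted p = 0.38).

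Absorptive and secretory epithelium lay on the CD45- side. Of 14 enterocyte markers, 14 were lower in CD45+ cells, with a median log2 fold change of -6.79. All CD45+ lay below all CD45- libraries for 8 of them, beside 11% of all genes tested. Apoa1, the apolipoprotein of HDL, was at 15828, 11818 and 632 CPM in CD45- f/f and 433, 101 and 7249 CPM in CD45- ΔIEC libraries. CD45+ libraries held 33.9, 49.9 and 91.4 CPM in f/f and 1.99, 1.94 and 9.12 CPM in ΔIEC mice (-8.27 ± 1.33). The CD45- libraries thus differed among themselves over more than 2 orders of magnitude, with replicates 1, 2 and 5 high and replicate 4 low. Apoa4 and Fabp2, which carry dietary lipid, differed by -9.85 ± 2.11 and -6.3 ± 1.02. Anpep, a brush border peptidase that myeloid cells also carry, differed by the least of the list (-2.68 ± 0.69) and was at 71.8 to 244 CPM in CD45+ libraries. Sis and Alpi, whose promoters are printed above, differed by -7.34 ± 1.48 and -5.94 ± 1.19.

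Of 10 goblet cell markers, 10 were lower in CD45+ cells, with a median of -7.14. Muc2, the mucin of the mucus gel, was at 6539, 3911, 743, 1055, 342 and 1910.0 CPM in CD45- and 22.6, 4.19, 43.6, 3.25, 7.19 and 0 CPM in CD45+ libraries (-7.81 ± 1.23). Fcgbp, Clca1 and Zg16, proteins of the same gel, differed by -8.49 ± 1.24, -7.2 ± 1.06 and -7.71 ± 1.37. Retnlb, a goblet cell product induced by IL-13, was at 8.8, 55, 21.2, 2.03, 0 and 1.38 CPM in CD45- libraries and had no count in CD45+ libraries, where the 3-count limit over 6 libraries is 0.0175 CPM. Of the CD45- libraries, f/f replicate 2 held the most Retnlb and ΔIEC replicate 4 none.

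The 10 Paneth cell markers were lower in CD45+ cells by less, with a median of -3.85, and 9 of the 10 overlapped between fractions. Defa24, Lyz1, Itln1 and Ang4, antimicrobial proteins of Paneth granules, differed by -3.69 ± 0.8, -3.24 ± 0.76, -4.15 ± 0.84 and -4.45 ± 0.8. Defensin genes are near-identical copies, and the counting could divide their reads. The list summed to 1417 CPM in CD45+ f/f replicate 13 and to 113 to 204 CPM in the other CD45+ libraries. In CD45- libraries it ranged from 400 CPM in ΔIEC replicate 4 to 11607 CPM in f/f replicate 2. Of 10 enteroendocrine markers, 9 were lower in CD45+ cells and Tph1 was not called (log2 fold change -1.45, SE 0.96, adjusted p = 0.28). Chga and Chgb, granins of hormone granules, differed by -9.42 ± 1.18 and -9.69 ± 1.58. The hormone genes Gip, Cck and Pyy had no count in CD45+ libraries and were at 8.72 to 183, 12.7 to 80.3 and 0.923 to 74.6 CPM in CD45- libraries. Tph1, which makes serotonin and is also found in mast cells, was at 10.2, 10.3, 1.16, 7.08, 5.38 and 0 CPM in CD45+ libraries.

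Of 10 crypt base stem cell markers, 8 were lower in CD45+ cells and 2 not called. Olfm4 was at 1369.9, 1203, 1633, 756, 459 and 1474 CPM in CD45- and 38.2, 14.5, 11, 5.6, 6 and 10.6 CPM in CD45+ libraries (-6.48 ± 0.49), and was thus more even among the CD45- libraries than Apoa1. Axin2 and Rgmb differed by -2.23 ± 0.41 and -1.48 ± 0.21, and Ascl2 passed only over 9 libraries (-11.09, adjusted p = 0.0022). All 14 junction and keratin genes were lower, among them the keratins Krt8 (-5.75 ± 0.62), Krt19 (-5.31 ± 0.71) and Krt18 (-6.39 ± 0.74). Tjp1, the ZO-1 scaffold that endothelium shares with epithelium, was at 96.5 to 204 CPM in all CD45- libraries alike, against 0 to 5.8 CPM in CD45+ libraries.

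Endothelium and stroma formed the other part of the CD45- side. Of 10 blood endothelial markers, 10 were lower in CD45+ cells without any overlap, with a median of -6.76. Plvap, which forms the diaphragms of fenestrated capillaries, was at 1219, 2559.7 and 4309 CPM in CD45- f/f and 7398, 9128 and 3749.8 CPM in CD45- ΔIEC libraries. It was at 16.6, 24.7 and 26.4 CPM in CD45+ f/f and 47.7, 109.7 and 0 CPM in CD45+ ΔIEC libraries (-6.95 ± 1.21). Cdh5 and Flt1, the endothelial cadherin and a VEGF receptor, differed by -6.78 ± 1.33 and -5.73 ± 0.67. Pecam1, which platelets and some leukocytes also carry, differed by less (-3.24 ± 0.39), at 50.4 to 118 CPM in CD45+ libraries. Of 7 lymphatic markers, 3 were lower and 4 not called. Flt4, the receptor of VEGF-C, differed by -6.14 ± 0.91, whereas Lyve1, which macrophages also make, and Reln did not pass (-0.05 ± 0.96 and 0.82 ± 1.45, adjusted p = 0.98 and 0.72).

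Of 10 fibroblast markers, 10 were lower in CD45+ cells, among them the collagens Col1a1 (-5.65 ± 1.00), Col3a1 (-5.53 ± 0.77) and Col1a2 (-5.25 ± 0.77) and the proteoglycan Dcn (-5.26 ± 0.8). Of 10 smooth muscle and pericyte markers, 9 were lower, among them Myh11 (-6.57 ± 1.17), Tagln (-4.5 ± 0.73) and the pericyte gene Rgs5 (-5.04 ± 0.53), with Acta2 at 168, 819, 143, 801, 1648 and 1489 CPM in CD45- and 4.55 to 44.8 CPM in CD45+ libraries. Cnn1 passed only over 9 libraries (-3.38, adjusted p = 0.032). All CD45+ lay below all CD45- libraries for 6 fibroblast and 7 muscle and pericyte markers, beside 11% of all genes tested. Of 8 genes of enteric glia and neurons, 5 were tested and none passed. Red cells lack CD45 in their mature form, and of 9 erythroid and platelet genes 6 were lower in CD45+ cells, 1 higher and 2 not called. Hbb-bs was at 1351, 4023, 13355, 2171, 1787 and 3449.8 CPM in CD45- and 35.8, 5.54, 10.5, 14.4, 32.7 and 0 CPM in CD45+ libraries (-7.9 ± 1.32), with replicate 23 the highest. Hba-a1 and Hba-a2, which are near-identical and can share reads, differed by -8.01 ± 1.48 and -8.12 ± 1.22. Pf4, a platelet chemokine that macrophages also make, was the 1 member of that list higher in CD45+ cells, at 323, 55, 43, 45.7, 67.3 and 104 CPM in CD45+ libraries and without a count in CD45- libraries (at least 3804-fold higher), whereas the platelet gene Gp1bb was lower in CD45+ cells (-6.47 ± 1.17) and Ppbp and Itga2b were not called (adjusted p = 0.81 and 0.17).

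**Figure D3:**
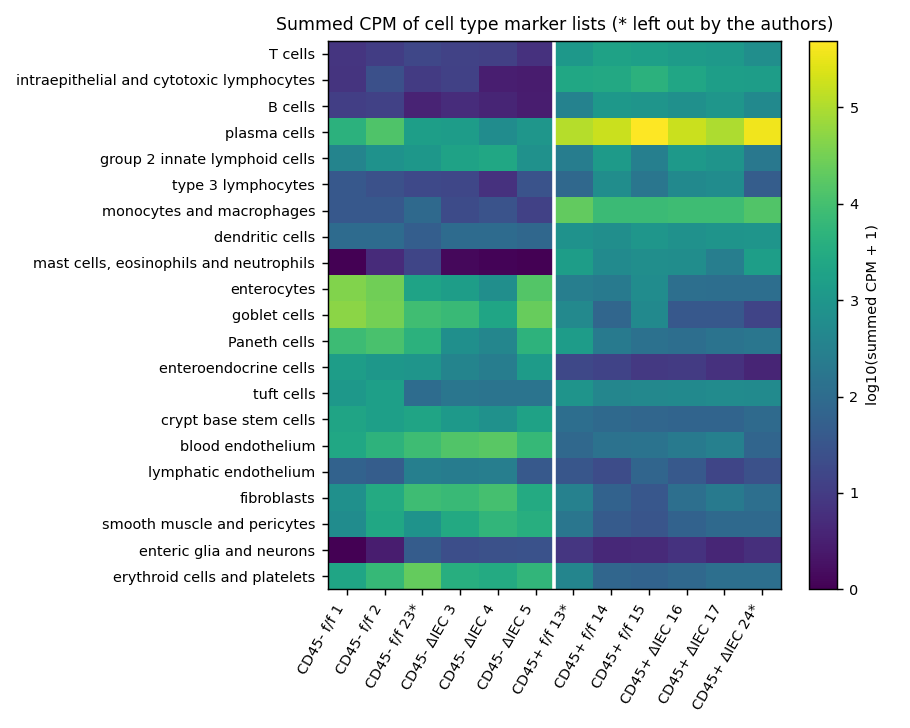
Summed CPM of 21 marker lists (rows) in the 12 Hoil1-/- libraries (columns), as log10 of the sum plus 1, with the CD45- libraries left of the white line. Enterocyte and goblet cell sums are high in CD45- f/f replicates 1 and 2 and ΔIEC replicate 5, blood endothelial and fibroblast sums are high in CD45- f/f replicate 23 and ΔIEC replicates 3 and 4, and plasma cell sums are highest in CD45+ f/f replicate 15 and ΔIEC replicate 24.

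The CD45- fraction was therefore not one tissue in all libraries. Enterocyte markers summed to 40945, 28807 and 14691 CPM in f/f replicates 1 and 2 and ΔIEC replicate 5, and to 2019, 1498 and 647 CPM in f/f replicate 23 and ΔIEC replicates 3 and 4. Blood endothelial markers summed to 2480 and 4720 CPM in replicates 1 and 2, to 6483 CPM in replicate 5 and to 8539, 13919 and 16974 CPM in replicates 23, 3 and 4. The epithelium-rich libraries were 2 of the 3 f/f libraries and 1 of the 3 ΔIEC libraries, so that this mixture moved with the Il4ra genotype in part, and its share in any difference between the genotypes was not tested. Among CD45+ libraries, plasma cell genes summed to 96336 to 491187 CPM and type 3 lymphocyte genes to 47.8 to 606 CPM.

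Tuft cells and group 2 innate lymphoid cells (ILC2s) form a circuit in which tuft cell IL-25 and leukotrienes activate ILC2s, whose IL-13 acts through IL-4Rα on the epithelium. Tuft cell genes did not fall on one side of the gate. Of 16 listed genes, 15 were tested, 6 were lower in CD45+ cells, 1 was higher and 8 were not called. Over 9 libraries 4 were lower, since Pou2f3 and Sucnr1 no longer passed. Trpm5, the ion channel of tuft cell taste signalling, was at 211, 228 and 2.58 CPM in CD45- f/f and 12.7, 6.61 and 12.3 CPM in CD45- ΔIEC libraries. CD45+ libraries held 4.35, 1.38 and 1.93 and 0, 0.625 and 0 CPM (log2 fold change -5.84, SE 1.08, adjusted p = 0.0016). Replicates 1 and 2 of CD45- f/f mice stood well above every other library. Dclk1, the kinase used to stain tuft cells, was at 63.4, 95.5, 22.5, 15.9, 8.17 and 15.8 CPM in CD45- libraries and had counts in 1 CD45+ library alone (-7.66 ± 1.34), without overlap. Sh2d6 and Chat, the adaptor and the acetylcholine enzyme of tuft cells, differed by -7.87 ± 1.5 and -5.08 ± 1.83, and the calls of Chat, Pou2f3 and Sucnr1 were each lost without any 1 of 10 libraries.

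Of the 8 tuft cell genes that were not called, several are also used by leukocytes. Alox5 and Ltc4s, which make leukotrienes, were at 72.8, 85.1, 6.61, 5.45, 0.483 and 1.94 and 54.2, 70.7, 12.4, 18.4, 5.46 and 2.76 CPM in CD45- and 19.96 to 71.4 and 14.8 to 106 CPM in CD45+ libraries (adjusted p = 0.21 and 0.29). Lrmp (log2 fold change 2.01, SE 0.89, adjusted p = 0.10) and Siglecf (log2 fold change 0.17, SE 1.44, adjusted p = 0.95), a lectin of eosinophils and tuft cells, also overlapped, again highest in CD45- f/f replicates 1 and 2 among CD45- libraries. Ptgs1, the constitutive cyclooxygenase, was higher in CD45+ cells, at 55.4, 109, 18.3, 76.8, 115 and 92.9 CPM in CD45- and 405, 155, 211, 215, 219.9 and 226 CPM in CD45+ libraries (log2 fold change 1.64, SE 0.4, adjusted p = 0.0084). Il25, the tuft cell cytokine, had counts in CD45- f/f replicate 2 alone (2.17 CPM) and did not enter the test.

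**Figure D4:**
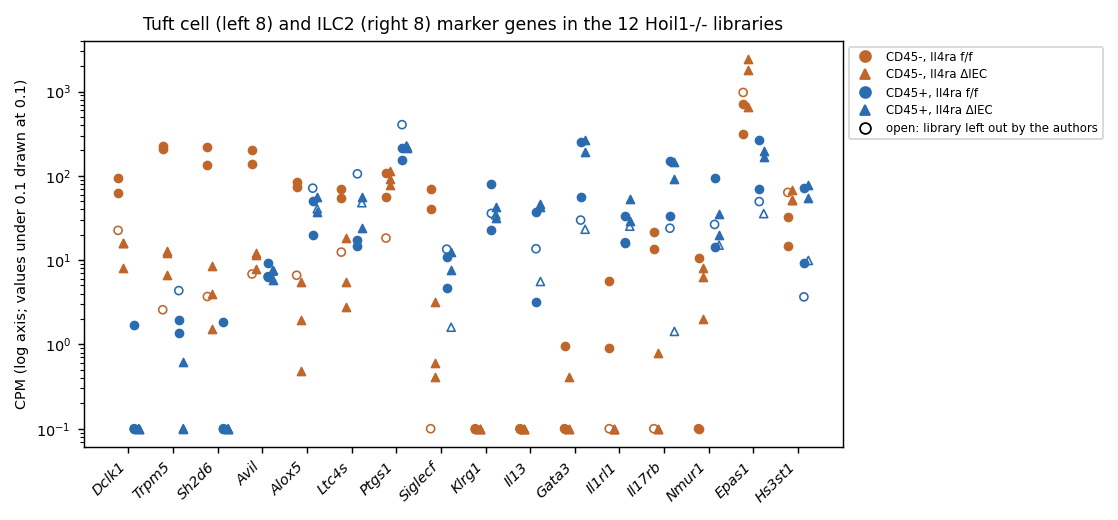
CPM (log axis) of 8 tuft cell and 8 ILC2 marker genes in the 12 Hoil1-/- libraries, CD45- in orange and CD45+ in blue, with circles for Il4ra f/f, triangles for ΔIEC and open symbols for libraries the authors left out. Dclk1, Trpm5, Sh2d6, Avil and Siglecf are highest in 2 CD45- f/f libraries, Alox5, Ltc4s and Ptgs1 are present on both sides, Klrg1 and Il13 have no count in CD45- libraries, and Epas1 is higher in CD45- libraries.

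Of 14 ILC2 genes, 10 were higher in CD45+ cells, 1 lower and 3 not called, with the same counts over 9 libraries. These libraries hold many T cells, so the genes shared with T cells do not mark ILC2s alone. Klrg1, a receptor of inflammatory ILC2s and of some T cells, was at 35.8, 80.6, 23, 42.8, 31.8 and 34.4 CPM in CD45+ libraries and had no count in CD45- libraries (at least 1482-fold higher). Il13 and Il5, the effector cytokines, were at 13.6, 37.4, 3.22, 42.4, 46.1 and 5.58 CPM and 4.03, 14.4, 1.23, 7.3, 9.63 and 15.6 CPM in CD45+ libraries and had no count in CD45- libraries. Both cytokines varied more than 10-fold among CD45+ libraries. Gata3 and Rora, factors of ILC2s that T cells also use, differed by 8.92 ± 1.27 and 3.44 ± 0.76. The receptors of the alarmins followed, with Il1rl1, the IL-33 receptor, at 0.896, 5.63, 0, 0, 0 and 0 CPM in CD45- and 16.1, 33.7, 16, 52.6, 29.5 and 25.2 CPM in CD45+ libraries (log2 fold change 5.92, SE 1.61, adjusted p = 0.014), and Il17rb, the IL-25 receptor, at 21.8, 13.5, 0, 0.785, 0 and 0 and 23.9, 149.7, 33.4, 145, 91.5 and 1.43 CPM (log2 fold change 5.02, SE 1.8, adjusted p = 0.048). Il17rb overlapped, since CD45- f/f replicates 1 and 2 held it and CD45+ ΔIEC replicate 24 nearly lacked it, and its call was lost without any 1 of 8 libraries.

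Nmur1, the neuromedin U receptor of ILC2s, was higher in every CD45+ than in every CD45- library, at 0, 10.5, 0, 1.98, 8.17 and 6.36 CPM against 26.5, 93.8, 14.5, 35.3, 20.1 and 15 CPM, and narrowly missed the threshold (log2 fold change 2.87, SE 1.11, adjusted p = 0.065). Calca, which encodes calcitonin gene-related peptide, and 1700061F12Rik, a transcript of unassigned function, had no count in CD45- libraries and were at 1.75 to 23.4 and 0 to 9.63 CPM in CD45+ libraries. Areg, an epidermal growth factor family ligand, and Hs3st1, a heparan sulfate enzyme, were not called (0.93 ± 1.82 and -0.32 ± 0.67, adjusted p = 0.75 and 0.77). Epas1, the hypoxia factor HIF-2α, was lower in CD45+ cells. It was at 311, 707 and 975 CPM in CD45- f/f and 1792, 2418 and 653 CPM in CD45- ΔIEC libraries, and at 49.5, 268 and 70.3 and 199, 169 and 35.6 CPM in CD45+ libraries, without overlap (log2 fold change -2.98, SE 0.62, adjusted p = 0.0031). The summed blood endothelial, fibroblast and smooth muscle markers were also highest in CD45- ΔIEC replicate 4, and their part in the Epas1 difference was not tested.

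Of 10 genes of type 3 lymphocytes, 9 were higher in CD45+ cells and 1 was not called. Il7r, the receptor of their survival factor, and Ltb, a lymphotoxin chain, were at 27.1, 172, 45.3, 122, 112 and 4.8 and 11.7, 148, 61.6, 114, 119.6 and 21.4 CPM in CD45+ libraries, and Il17a at 13.6, 99.9, 3.89, 99.6, 83.3 and 9.25 CPM. Replicates 13, 15 and 24 were low and replicates 14, 16 and 17 high for all 3. In CD45- libraries Il17a, Il17f, Il22 and Il23r had no count. All CD45+ lay above all CD45- libraries for 4 of the 10 genes, beside 10.1% of all genes tested.

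Ligands were then set beside their receptors. Of 14 chemokine genes, 5 were higher, 4 lower and 5 not called in CD45+ cells, and of 14 chemokine receptor genes 12 were higher, 1 lower and 1 not called. Ccl25, the epithelial chemokine that draws gut-homing lymphocytes, was at 276, 169, 66.6, 46.4, 26.1 and 91.9 CPM in CD45- and 16.9, 4.5, 7.74, 5.24, 4.25 and 4.06 CPM in CD45+ libraries (log2 fold change -3.87, SE 0.48, adjusted p = 0.00013). Its receptor Ccr9 was at 0 to 1.38 CPM in CD45- and 29.8, 146, 112, 89.4, 69.1 and 43.8 CPM in CD45+ libraries (log2 fold change 8.41, SE 1.23, adjusted p = 0.00039). Ccl28, which draws IgA-producing cells, and its receptor Ccr10 differed by -7.76 ± 1.46 and 6.11 ± 1.13 in opposite directions. Cx3cl1, a membrane-bound chemokine, and Cx3cr1, its receptor on resident macrophages, differed by -3.86 ± 0.86 and 9.26 ± 1.12.

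Cxcl12, which retains leukocytes in tissue, was at 43, 94.6 and 778 CPM in CD45- f/f and 422, 434 and 76.2 CPM in CD45- ΔIEC libraries. In CD45+ libraries it was at 4.26 to 17.2 CPM (log2 fold change -4.94, SE 0.77, adjusted p = 0.00056). It has 2 receptors that differed in direction. The signalling receptor Cxcr4 was at 208, 291, 150.2, 621, 885 and 147 CPM in CD45+ and 2.93 to 37.4 CPM in CD45- libraries (4.09 ± 0.7), whereas the scavenging receptor Ackr3 was at 26.3 to 191 CPM in CD45- and 0 to 7.31 CPM in CD45+ libraries (-4.85 ± 0.85). Other pairs lay on the CD45+ side together. Cxcl16 differed by 3.61 ± 0.52, and its receptor Cxcr6 had no count in CD45- libraries and was at least 1901-fold higher. Cxcl9 differed by 2.99 ± 0.78, and its receptor Cxcr3 was at least 1032-fold higher. Ccl6, a chemokine of myeloid cells, was at 45 to 489 CPM (median 175) in CD45- and 71.9 to 881 CPM (median 321) in CD45+ libraries, and was not called (log2 fold change 0.89, SE 0.63, adjusted p = 0.32).

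**Figure D5:**
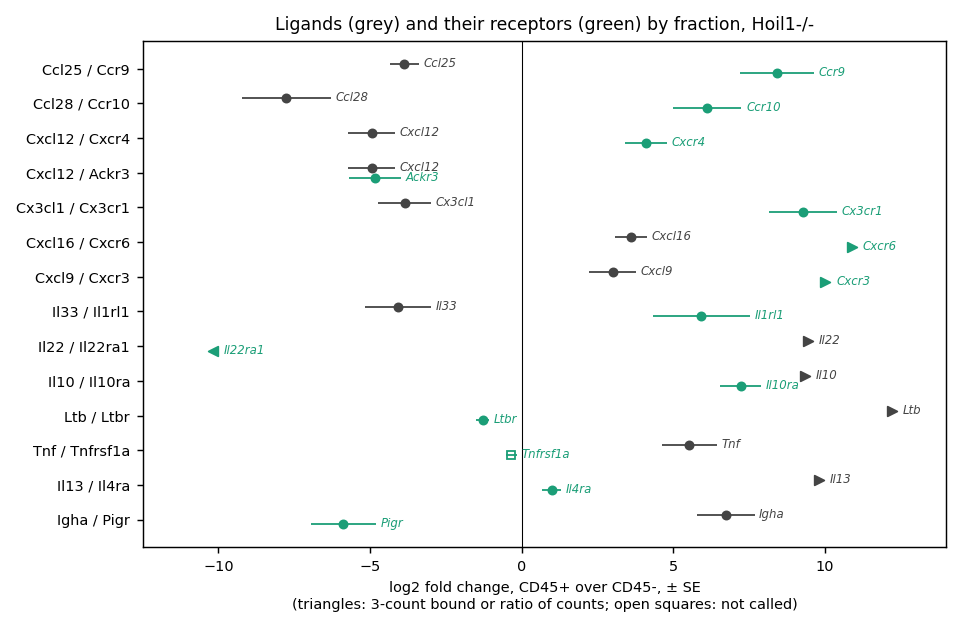
Log2 fold change of CD45+ over CD45- libraries with its standard error for ligands (grey) and their receptors (green), with triangles for genes at 3 counts or fewer in 1 fraction, drawn at their 3-count bound or count ratio, and an open square for Tnfrsf1a, which was not called. Ccl25, Ccl28, Cxcl12, Cx3cl1 and Il33 lie below 0 and the receptors Ccr9, Ccr10, Cxcr4, Cx3cr1 and Il1rl1 above 0, while Il22, Ltb and Igha lie above 0 and Il22ra1, Ltbr and Pigr below 0.

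Of the 3 alarmin genes tested, Il33 alone was called. Il33, released by damaged epithelium and stroma, was at 5.62, 16.8, 18.7, 23.4, 33.4 and 38.1 CPM in CD45- and 5.52, 1.57, 0.595, 0.361, 1.31 and 0 CPM in CD45+ libraries (log2 fold change -4.09, SE 1.09, adjusted p = 0.013), and the lowest CD45- library was only just above the highest CD45+ library. Tslp and Il18 were not called, at 0 to 2.61 and 0.483 to 10.4 CPM in CD45- and 0 to 5.84 and 3.76 to 17.3 CPM in CD45+ libraries (adjusted p = 0.55 and 0.097). The receptor subunits were called on the CD45+ side, with Crlf2 of the TSLP receptor at 2.03 ± 0.28, Il7r at 7.99 ± 1.25, Il17ra at 2.69 ± 0.44 and Il18r1 and Il18rap of the IL-18 receptor at 3.8 ± 0.76 and 6.7 ± 1.42. Il1rap, the accessory chain shared by IL-1 family receptors, was not called (log2 fold change 0.23, SE 0.48, adjusted p = 0.76).

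For the type 2 cytokines, 8 of 13 tested genes were higher in CD45+ cells and 5 were not called, and over 9 libraries Stat6 and Jak1 passed as well, for 10. Il4 was at 4.31, 7.75, 0.946, 15.1, 16.9 and 0 CPM in CD45+ libraries and had no count in CD45- libraries. Il4ra (ENSMUSG00000030748.9, chr7:125552120-125579474, plus strand) was on both sides, at 60.3, 81.4 and 64.8 CPM in CD45- f/f, 128, 92 and 62.3 CPM in CD45- ΔIEC, 156, 91.3 and 89 CPM in CD45+ f/f and 297, 273 and 104 CPM in CD45+ ΔIEC libraries. The fractions overlapped and the log2 fold change was 0.98 (SE 0.31, adjusted p = 0.027), a call lost without any 1 of replicates 4, 5, 13, 16 and 17. Within CD45- cells the ΔIEC libraries did not lie below the f/f libraries. The highest of them, ΔIEC replicates 3 and 4, had enterocyte sums of 1498 and 647 CPM, and replicate 5 had 14691 CPM. Vil1-cre acts in epithelial cells alone, so whole-gene values of this mixed fraction do not measure the deletion. Il2rg and Csf2rb, shared chains of cytokine receptors, differed by 2.88 ± 0.31 and 3.12 ± 0.62. The type 1 cytokine genes Ifng and Tnf were at 0 to 14.4 and 23 to 114 CPM in CD45+ libraries, and Ifng had no count in CD45- libraries.

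IL-22 is made by lymphocytes and acts on the epithelium through a receptor that leukocytes lack. Il22 was at 1.97, 13.5, 2.38, 43.8, 54.3 and 0 CPM in CD45+ libraries and had no count in CD45- libraries. Il22ra1, its specific receptor chain, was at 50.6, 38.1, 12.6, 7.25, 3.12 and 9.95 CPM in CD45- libraries and had no count in CD45+ libraries, so that it was at least 1160.3-fold lower there. Il10rb, the chain shared with IL-10, was on both sides and higher in CD45+ cells (1.46 ± 0.24), and Il10ra differed by 7.21 ± 0.67. Reg3b and Reg3g, epithelial antimicrobial lectins, were lower in CD45+ cells (-4.75 ± 0.66 and -5.89 ± 0.79).

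IgA and its transporter lay on opposite sides of the gate. Pigr, the epithelial receptor that carries IgA dimers into the lumen, was at 2162, 2245, 845, 830.4, 462 and 897 CPM in CD45- and 79.5, 10.2, 53.5, 12.3, 10.8 and 0 CPM in CD45+ libraries (log2 fold change -5.88, SE 1.07, adjusted p = 0.0014), against the plasma cell genes Igha and Jchain above. Tnfrsf17 and Tnfrsf13b, receptors of plasma cell survival factors, were on the CD45+ side, the former without a count in CD45- libraries and the latter with a difference of 7.17 ± 1.06. Their ligands were not called, with Tnfsf13b, which encodes BAFF, at 0 to 10.3 and 6.61 to 24.8 CPM in CD45- and CD45+ libraries (adjusted p = 0.17) and Tnfsf13, which encodes APRIL, at 2.93 to 12.8 and 0 to 2.14 CPM (adjusted p = 0.082). Tnfsf13 did not overlap between the fractions and passed over 9 libraries as lower in CD45+ cells (-2.42, adjusted p = 0.022).

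Genes of neuropeptide and eicosanoid signalling were also divided by the gate. Calcrl and Vipr1, receptors of calcitonin gene-related peptide and vasoactive intestinal peptide, were lower in CD45+ cells (-3.89 ± 0.36 and -2.32 ± 0.4). Nmu, the ligand of Nmur1, had no count in any of the 12 libraries. Of 14 eicosanoid genes, 6 were higher and 8 not called in CD45+ cells. Ptgs2, the inducible cyclooxygenase, was at 29.1, 27.1, 10.8, 98.1, 120.4 and 37.8 CPM in CD45+ and 0 to 3.52 CPM in CD45- libraries (5.04 ± 1.12), and Hpgds, which makes prostaglandin D2, differed by 4.8 ± 1.04. The prostaglandin E2 receptor gene Ptger4 differed by 1.42 ± 0.4 with overlap, and Lta4h, at 62.7 to 97.2 and 79.5 to 105 CPM, and Alox5ap were not called (adjusted p = 0.40 and 0.092).

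Of 10 genes of LUBAC and linear ubiquitin regulation, 3 were higher in CD45+ cells and 7 not called, over 12 libraries as over 9, a share no larger than the 34.5% called in either direction among all genes. Neither of the LUBAC subunits beside HOIL1 passed the test, and the sign of both turned with total-count scaling. Rnf31, the catalytic subunit HOIP, was at 39.8, 48.9, 43.9, 61.7, 67.3 and 34.6 CPM in CD45- and 55.4, 51.7, 54.7, 59.2, 56.8 and 47.7 CPM in CD45+ libraries (log2 fold change 0.14, SE 0.2, adjusted p = 0.63). Sharpin was at 21.6 to 37 and 21.6 to 42.3 CPM (log2 fold change 0.21, SE 0.2, adjusted p = 0.47). Otulin, the deubiquitinase specific for linear chains, was at 3.01, 11.9, 18.8, 14.6, 14.8 and 14 CPM in CD45- and 33.7, 54.2, 39.995, 53.6, 44.3 and 42.2 CPM in CD45+ libraries (log2 fold change 1.81, SE 0.36, adjusted p = 0.0024), without overlap. Cyld, a deubiquitinase of linear and K63 chains, was at 16 to 26.9 and 56 to 125 CPM, also without overlap (log2 fold change 2.16, SE 0.24, adjusted p = 7.1e-05). Tnfaip3, which encodes A20, was at 27.3, 32, 8.41, 86.2, 112 and 20.9 CPM in CD45- and 164, 696, 132, 1266, 1324 and 96.1 CPM in CD45+ libraries (log2 fold change 3.74, SE 0.73, adjusted p = 0.0021), with replicates 14, 16 and 17 far above 13, 15 and 24. Per kilobase of exon, the mean levels in CD45+ and CD45- libraries were 9.46 and 8.61 CPM for Rnf31 and 26.4 and 7.59 CPM for Otulin. Tnip1, an adaptor of A20, was not called (log2 fold change 0.43, SE 0.36, adjusted p = 0.40).

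Of 17 genes of TNF ligands, receptors and cell death, 7 were higher, 2 lower and 8 not called in CD45+ cells. Tnf differed by 5.53 ± 0.9 and its receptor Tnfrsf1b by 1.78 ± 0.54, while the broadly expressed receptor Tnfrsf1a was at 153 to 214 CPM in CD45- and 88.7 to 195 CPM in CD45+ libraries and was not called (log2 fold change -0.35, SE 0.19, adjusted p = 0.19). Ltb had 2 counts in all CD45- libraries together, and its receptor Ltbr was at 135, 116, 104, 122, 129.8 and 134 CPM in CD45- and 62.7, 36.5, 31.2, 57.1, 57.6 and 59.4 CPM in CD45+ libraries (log2 fold change -1.29, SE 0.2, adjusted p = 0.00059). Birc3, an inhibitor of apoptosis that NF-κB induces, differed by 2.95 ± 0.34. Tnfsf10, which encodes TRAIL, was lower in CD45+ cells over 12 libraries (log2 fold change -1.33, SE 0.42, adjusted p = 0.027) and not called over 9 (-0.83, adjusted p = 0.19). The death effectors Ripk1, Ripk3, Mlkl, Casp8 and Fadd were all not called, with log2 fold changes from -0.8 for Fadd to 0.62 for Ripk1.

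Genes that answer to handling of cells and genes of every cell were set beside these values. Of 12 immediate-early and heat shock genes, 5 were higher and 7 not called in CD45+ cells, beside 34.5% of all genes called. Over 9 libraries 3 were higher, where 15.5% of all genes were higher and 18.1% lower. Cell isolation is known to induce such genes, and their part in other results was not tested. Junb was at 273, 304, 426, 936, 1115 and 606 CPM in CD45- and 2095, 2572, 582, 3661, 4438 and 1564 CPM in CD45+ libraries (log2 fold change 2.13, SE 0.4, adjusted p = 0.0016), and Egr1 at 342, 473, 1132, 2936, 3441 and 2000.4 and 1817, 1108, 337, 1295, 1173 and 592 CPM (log2 fold change -0.35, SE 0.56, adjusted p = 0.68). Fos and Jund differed by 1.08 ± 0.35 and 0.97 ± 0.22, and Fos lost its call over 9 libraries (1.00, adjusted p = 0.073). Of 14 proliferation genes, Pcna alone was called over 12 libraries (log2 fold change 0.74, SE 0.19, adjusted p = 0.0098), while over 9 libraries Ccna2 and Tyms were also called, as lower. Over 12 libraries Mcm5, Mcm3 and Mki67 were not called (0.61 ± 0.38, 0.41 ± 0.33 and -0.38 ± 0.48, adjusted p = 0.25, 0.38 and 0.60). Of 12 housekeeping genes, Actb (log2 fold change 0.88, SE 0.25, adjusted p = 0.019) and B2m (log2 fold change 0.9, SE 0.24, adjusted p = 0.013) were called over 12 libraries and neither over 9, and Gapdh and Rps18 were not called (0.03 ± 0.32 and 0.22 ± 0.18).

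The comparison was then made within each Il4ra genotype. In f/f mice 1429 genes (8.82%) were higher and 1494 (9.22%) lower in CD45+ cells, and in ΔIEC mice 1297 (8.01%) were higher and 1571 (9.7%) lower. Over 9 libraries these were 1697 (9.98%) and 1970 (11.6%) genes in f/f and 1785 (10.5%) and 1898 (11.2%) in ΔIEC mice. Ptprc differed by 5.81 in f/f and 8.95 in ΔIEC mice (SE 0.78 and 0.9), and Epcam by -4.14 and -4.25 (SE 0.69 and 0.7). Plvap differed by -6.9 and -7.01, and Trpm5 by -5.85 and -5.84. Whether the fraction effect depended on the genotype was tested as an interaction. Of 16197 genes, 2 (0.0123%) passed, Klhl6 and Ighm, while 984 had an unadjusted p under 0.05, and over 9 libraries none (0%) passed, with 1742 under 0.05. DESeq2 called 215 genes over the 12 libraries, and the edgeR test called 0 to 13 when 1 library was left out, 13 without CD45- f/f replicate 23.

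In both genes the genotypes differed in CD45- cells, where levels were low. Klhl6, an adaptor of ubiquitin ligation in B cells, was at 0, 0 and 0 CPM in CD45- f/f and 7.52, 11.2 and 5.11 CPM in CD45- ΔIEC libraries, beside 28.2, 55.5 and 42.7 and 45.5, 56.3 and 33.2 CPM in CD45+ libraries (adjusted p = 0.029, and 0.055 over 9 libraries). Ighm, the constant region of IgM, was at 0, 0 and 0 CPM in CD45- f/f and 1.89, 1.86 and 3.18 CPM in CD45- ΔIEC libraries, beside 724, 769 and 469 and 585, 575 and 947 CPM in CD45+ libraries (adjusted p = 0.029, and 0.088 over 9 libraries). For both, the 3 CD45- f/f libraries had no count and the CD45+ libraries of the genotypes overlapped. Trpm5 did not pass the interaction test (log2 difference of the effects, ΔIEC less f/f, 0.02, SE 1.43, adjusted p = 1.00), nor did Il4ra (0.55, SE 0.61, adjusted p = 1.00).

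Last, the fraction effect of Hoil1-/- mice was set beside that of Hoil1+/+ mice in 1 fit over 24 libraries and 17903 genes. In Hoil1+/+ mice 3101 genes (17.3%) were higher and 4046 (22.6%) lower in CD45+ cells, and in Hoil1-/- mice 3270 (18.3%) and 3678 (20.5%). Of the genes higher in CD45+ cells, 2562 were shared, which is 78.3% of the Hoil1-/- and 82.6% of the Hoil1+/+ genes, and of the lower genes 3153 were shared, 85.7% and 77.9%. A single gene, Gm26882, named after its values were seen, passed in opposite directions, at no more than 1.74 CPM in any Hoil1-/- and 1.03 CPM in any Hoil1+/+ library. The interaction of fraction with Hoil1 passed for 1 gene (0.00559%), Dennd1c, and 773 genes had an unadjusted p under 0.05, while DESeq2 called 267 genes and leaving out 1 Hoil1-/- library gave 0 to 25, with 25 without CD45- f/f replicate 2. Dennd1c, an exchange factor for Rab35 in lymphocytes, was at 2.04, 1.81 and 2.58 CPM in CD45- f/f and 0.554, 0.297 and 0 CPM in CD45- ΔIEC libraries and at 64.1, 68.6, 64.7, 87.3, 79.8 and 28.9 CPM in the CD45+ libraries of Hoil1-/- mice. In Hoil1+/+ mice it was at 0 to 0.125 CPM in CD45- and 42.6 to 91.4 CPM in CD45+ libraries (log2 difference of the effects, Hoil1-/- less Hoil1+/+, -6.6, adjusted p = 0.019). The Hoil1 genotypes overlapped in CD45+ cells, and in CD45- cells through the Hoil1-/- ΔIEC replicate at 0 CPM.

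Over 21 libraries, without the 3 the authors left out, 5 genes of 18778 (0.0266%) passed that test, among them Dennd1c, Lrmp, Gnao1 and Aasdh, and Gnao1 and Aasdh differed by 5.43 and 5.5 (log2, Hoil1-/- less Hoil1+/+). Lrmp, a tuft cell marker that B cells also make, was at 1.41 to 4.95 CPM in CD45- and 49.8 to 92.5 CPM in CD45+ libraries of Hoil1+/+ mice. In Hoil1-/- mice CD45- libraries held 2.79 to 109 CPM and CD45+ libraries 21.1 to 73.3 CPM. The difference of the effects was -2.93 over 24 libraries (SE 0.62, adjusted p = 0.23) and -2.98 over 21 (adjusted p = 0.021). Within Hoil1-/- CD45- cells, Lrmp was high in f/f replicates 1 and 2 and low in the others, as Trpm5 was. This interaction also did not pass over 24 libraries for Il33 (adjusted p = 0.76), Il13 (1.00), Klrg1 (1.00), Nmur1 (0.80) or Dclk1 (1.00). The study tested the effect of Hoil1 within each fraction, which is another question that the interaction does not answer. Il13 and Klrg1 had no count in Hoil1-/- CD45- libraries, so their fitted fraction effects there are no bound. For both genes the interaction therefore cannot measure a Hoil1 difference.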

How the data were processed

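RNA of CD45+ and CD45- cells of the ileum was measured in 24 libraries, of which the 12 Hoil1-/- libraries enter the main comparison. The authors sorted the cells, made stranded poly(A) libraries, used cutadapt for trimming, STAR for alignment to the mm10 genome and featureCounts for counting on Ensembl genes, without versions or counting options in the sources used here. The deposited values are raw whole-number counts per gene, one table for all libraries, made by the authors with no normalization, and every value column was mapped to a sample (0 left unused). Of 39056 genes, 38872 were placed on GRCm38 with GENCODE M21.

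Genes were kept by filterByExpr (count minimum 10, total 15) and tested in edgeR 4.0.16 (R 4.3.3) with TMM scaling and a quasi-likelihood test of fraction with Il4ra genotype as covariate (two-sided, Benjamini-Hochberg threshold 0.05). Fraction effects within each Il4ra genotype, their interaction, and the interaction with Hoil1 over 24 libraries were fitted likewise. Where a fraction had no count, a fold is given as a bound against 3 counts over the summed effective size of its libraries, and with 1 to 3 counts as a count ratio with an exact 95% interval. Alternatives were DESeq2 1.42.0, other scalings, filters and covariates, the 9 libraries of the authors' list, and leaving out each library. Replicate libraries differed by more than sampling noise (chi-square per degree of freedom 63 to 864). On simulated counts of 15402 genes the fraction test recovered 33 of 91 genes changed 4-fold and 65 of 96 changed 16-fold, with 4 false calls. No other gene tested there was changed, whereas 34.5% of genes were called in the data. The threshold was thus stricter there, and the recovery does not measure that of the real comparison.

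The members, the 40 gene lists and the tests were chosen with earlier results of these data known. Named were Rbck1, Il4ra, Ptprc and Epcam, the 10 protein-coding genes per direction with the smallest adjusted p, a log2 change of at least 2 and no overlap, up to 4 members per list with the highest mean CPM and those against the list's expected fraction, interaction genes, and ligands and receptors. Other list members (for example Cd2, Cd3d, Cd5, Prdm1, Retnlb, Sis, Alpi, Cdx2, Tph1 and Ciita) were named after their values were seen, as members without a count, not called or called in 1 library set alone. Promoters are from RefSeq, GRCm38.p6. Some genes that these rules name are not reported here.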

Additional observations from a re-analysis of the deposited data

Results flagged for a closer look

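In each group of 6 libraries the highest or lowest value was compared with its nearest neighbour by Dixon's ratio on log2(CPM + 1), for 48 combinations of a fraction with a marker list or gene, and 6 were flagged, where chance flags about 1 in 20. CD45+ f/f replicate 13, one of the libraries the authors left out, stood above the other 5 CD45+ libraries for Paneth cell markers (1417 CPM against 113 to 204), for tuft cell markers (889.7 CPM against 407 to 542) and for erythroid and platelet genes (386 CPM against 64 to 117). The genes summed differ between these lists, and the same library held the highest macrophage sum (20783 CPM). CD45+ ΔIEC replicate 24 was below the others for Ptprc, at 252 CPM against 470 to 640 CPM. CD45- f/f replicate 23 was below the others for dendritic cell markers, at 48 CPM against 77.7 to 98.9 CPM, and for Rbck1, at 0 CPM against 2.85 to 7.28 CPM.

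The fraction effect differed between Il4ra genotypes for Klhl6 (log2 difference of the effects, ΔIEC less f/f, -10.44) and Ighm (-8.63), both tested as an interaction (adjusted p = 0.029 by edgeR), and for both the fitted size rests on CD45- f/f libraries without a count and is no bound. It differed between Hoil1 genotypes for Dennd1c (log2 difference, Hoil1-/- less Hoil1+/+, -6.60, adjusted p = 0.019). Dennd1c was at 0 to 2.58 CPM in the CD45- libraries of Hoil1-/- and at 0 to 0.125 CPM in those of Hoil1+/+ mice.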

How the results depend on the processing

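The genes higher and lower in CD45+ libraries numbered 2674 and 3657 with DESeq2, 2266 and 3277 with RLE size factors, 2237 and 2802 without a filter, and 2725 and 2963 with a block for genotype and age, and no gene called over 12 libraries passed in the opposite direction under any alternative. Leaving out 1 library gave 2005 (without 14) to 2507 (without 24) higher and 2533 (without 3) to 2946 (without 24) lower. The share of higher among called genes was 45.1%, and 31.7% with total counts, where all genes shifted by a median of -0.34 on the log2 scale. RLE size factors shifted them by -0.10.

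The 2 genes of the Il4ra interaction became 215 with DESeq2, 0 over 9 libraries and 0 to 13 when 1 library was left out. The 1 gene of the Hoil1 interaction became 267 with DESeq2, 5 over 21 libraries and 0 to 25. The cause was not tested.

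Of 205 genes named in the text and called, 192 kept their call whichever library was left out. The other 13 were Actb (lost without 3), Il17f (without 17), Tnfrsf1b (without 2), Il23r (without 14, 16 or 17), Grhl2 (without 13, 14 or 15), Il4ra (without 4, 5, 13, 16 or 17), Tnfsf10 (without 3, 4, 16, 17 or 23), Fos (7 libraries), Il17rb (8), Ptpn6 (9), Chat, Pou2f3 and Sucnr1 (10 each).

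The log2 fold change turned in sign for 13 named genes, none of them called. With total counts the log2 fold change was -0.21 for Rnf31, -0.14 for Sharpin, -0.18 for Casp8, -0.33 for Gapdh, -0.14 for Rps18, -0.16 for Il1rap, -0.15 for Lta4h and -0.049 for Siglecf. Over 9 libraries it was -0.016 for Casp8, -0.34 for Gapdh, 0.47 for Hs3st1 and 0.30 for Lyve1. With DESeq2 and with RLE size factors it was -0.063 for Gapdh. Without the Il4ra covariate it was -0.99 for Ppbp, -1.18 for Siglecf and 0.0044 for Tslp. With 1 library left out it ranged from -0.17 to 0.20 for Gapdh, from -0.41 to 0.94 for Lyve1, from -0.45 to 0.78 for Siglecf, from -1.39 to 6.00 for Ppbp and from -0.065 to 1.30 for Reln.

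No paired analysis was possible because each library number occurs once and no label ties a CD45+ to a CD45- library of one mouse. The block for genotype and age leaves out replicate 13, whose age no other library of its genotype shares. Depth limits genes without a count in a fraction to bounds. The test on simulated counts missed most genes changed 4-fold, but far fewer genes were changed there than were called here. How many real differences were missed was not measured.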

Other observations

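Beyond the gene lists, antigen receptor genes were described by annotated class. Of 176 immunoglobulin variable genes tested, 157 were higher in CD45+ cells, 19 were not called and none was lower, and of 34 T cell receptor variable genes 23 were higher. Summed over variable genes, immunoglobulin RNA was 26635 to 180629 CPM (median 53638) in CD45+ and 79.1 to 4581 CPM (median 388) in CD45- libraries. Between 154 and 186 immunoglobulin variable genes had a count in a CD45+ library, and 22 to 88 in a CD45- library. T cell receptor variable genes summed to 46.3 to 188 CPM in CD45+ and 0 to 1.94 CPM in CD45- libraries. Variable genes are alike in sequence, and the counting can divide or drop their reads. All 11 immunoglobulin constant genes tested were higher in CD45+ cells. Among them, Ighg2b, of IgG2b, was at 43.5, 184, 1694, 388, 419 and 873 CPM in CD45+ libraries, with f/f replicate 15 the highest, and Ighg1, of IgG1, at 0, 10.6, 136, 18, 3.63 and 57.6 CPM. Ighd, which marks mature naive B cells, was at 0, 151, 48.1, 96.8, 85.3 and 8.73 CPM and was low in replicates 13 and 24, as Pax5 was.

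Of 371 long intergenic RNA genes tested, 67 were higher and 40 lower in CD45+ cells, beside 2166 and 2972 of 14415 protein-coding genes.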
